A study of Homo sapiens with 7 samples.

Results

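The Lat-M1 pair against PA is a comparison of 5 of the 7 RNA-seq libraries of the series: the 2 Lat-M1 libraries against the 3 PA libraries, chosen by their sample titles. All 7 were made from 769-P, an established human line of kidney cancer of the clear cell kind (ccRCC). The series concerns latent metastatic cells, abbreviated Lat-M, derived from this cancer. PA is not spelled out in the labels, and they do not say what the first number of a Lat-M name stands for. Both groups carried no labelled gene edit or drug and were grown in the same RPMI medium with fetal bovine serum, so the labelled difference between them is the cell population alone. Whether libraries of 1 group came from separate cultures is not stated, so the p-values below speak only for the variation among these 7 libraries and may reflect technical spread. The other 2 libraries, Lat-M2, entered the fit to estimate the spread and are used below to show where Lat-M1 differed from them.

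Clear cell renal cell carcinoma arises from the epithelium of the proximal tubule, a cell that reabsorbs glucose, amino acids, water and organic ions through a brush border of microvilli, and it usually retains part of that transporter programme. Contractile genes of the smooth muscle kind, such as those for smooth muscle actin and transgelin, are switched on in myofibroblasts and in spread, tense cells by serum response factor (SRF), which binds CArG boxes together with actin-sensing coactivators. NF-kB is the transcription factor family that inflammatory cytokines activate, and chemokine genes and its own inhibitors are among its best known targets.

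Promoter sequences of 6 genes that rose at least 2-fold are shown here, because contractile genes and chemokine and NF-kB genes are among the groups described below and the motifs named for their best known regulators can be read in these windows. The windows are the 250 bases before the annotated start, 5′ to 3′ on the gene's strand, from RefSeq on GRCh38.p14. Capitals mark each match to the motif searched, on either strand. The CArG box, an A and T run between a CC and a GG, was searched in its strict form. ACTN1, FLNA and TPM4 (alpha-actinin, filamin and a tropomyosin, all partners of actin filaments) each held 1 CArG box, at 171, 94 and 173 bases before the start.
ACTN1 (chr14:68977567-68977816, minus strand): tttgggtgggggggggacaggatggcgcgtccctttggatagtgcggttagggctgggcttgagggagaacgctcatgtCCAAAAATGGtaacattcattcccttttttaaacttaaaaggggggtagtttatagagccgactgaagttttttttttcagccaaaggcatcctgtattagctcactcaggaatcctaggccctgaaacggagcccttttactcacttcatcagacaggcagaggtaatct
FLNA (chrX:154374635-154374884, minus strand): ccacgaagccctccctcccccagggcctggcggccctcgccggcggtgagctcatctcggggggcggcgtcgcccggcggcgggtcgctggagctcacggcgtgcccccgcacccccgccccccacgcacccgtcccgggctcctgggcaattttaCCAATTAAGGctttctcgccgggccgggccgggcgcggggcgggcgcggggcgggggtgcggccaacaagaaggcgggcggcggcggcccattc
TPM4 (chr19:16067288-16067537, plus strand): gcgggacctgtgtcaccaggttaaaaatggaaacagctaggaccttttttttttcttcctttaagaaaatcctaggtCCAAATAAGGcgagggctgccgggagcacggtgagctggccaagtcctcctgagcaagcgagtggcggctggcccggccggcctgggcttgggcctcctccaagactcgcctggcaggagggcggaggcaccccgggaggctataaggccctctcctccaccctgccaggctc

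The NF-kB site was searched by its consensus. CXCL1 and CXCL2 (neutrophil chemokines) each held 2 overlapping matches and TNFAIP3 (A20, an inhibitor of NF-kB signalling) held 2 that do not overlap.
CXCL1 (chr4:73869143-73869392, plus strand): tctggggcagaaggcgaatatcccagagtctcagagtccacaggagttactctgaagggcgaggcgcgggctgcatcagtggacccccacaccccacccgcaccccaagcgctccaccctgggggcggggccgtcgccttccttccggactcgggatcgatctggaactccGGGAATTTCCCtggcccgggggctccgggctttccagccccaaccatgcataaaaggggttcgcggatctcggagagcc
CXCL2 (chr4:74099196-74099445, minus strand): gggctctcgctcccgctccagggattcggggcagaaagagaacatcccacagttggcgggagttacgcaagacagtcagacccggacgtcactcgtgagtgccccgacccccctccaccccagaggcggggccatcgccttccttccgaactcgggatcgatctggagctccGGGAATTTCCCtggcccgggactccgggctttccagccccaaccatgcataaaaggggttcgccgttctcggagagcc
TNFAIP3 (chr6:137867009-137867258, plus strand): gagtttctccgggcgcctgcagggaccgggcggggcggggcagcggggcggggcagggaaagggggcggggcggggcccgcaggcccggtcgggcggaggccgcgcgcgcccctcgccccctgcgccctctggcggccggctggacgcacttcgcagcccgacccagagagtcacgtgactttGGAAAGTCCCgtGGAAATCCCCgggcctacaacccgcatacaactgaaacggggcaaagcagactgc

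Of 27305 genes with such a window, 1.44% held a CArG box, 6.28% an NF-kB site and 5.19% the AP-1 site TGACTCA. Among the 19 contractile genes that rose in Lat-M1, 17 had a window, and 5 of these (29.4%: CNN2, SMTN, ACTN1, FLNA and TPM4) held a CArG box, 3 (17.6%) an NF-kB site and 1 (5.88%) an AP-1 site. The genes of this list with the largest rises, ACTA2, TAGLN and MYL9, were not among these 5, and TAGLN and MYL9 had no window. The chemokine and NF-kB genes that rose numbered 22, of which 17 had a window. NF-kB sites were in 11 of these 17 (64.7%), and CArG boxes and AP-1 sites in 0. These matches are a description of letters in 1 window and not of binding. Both lists hold genes known as targets or parts of these pathways, so a high share can follow from membership alone. Members that did not rise were not counted, and the 27305 genes include ones not tested here. No conclusion on the rises in Lat-M1 is drawn from these shares.

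The values are TPM, a measure of transcript abundance per gene length that is scaled to the same sum in every library, so the sequencing depth behind them is unknown. A gene was tested when its mean over the 7 libraries was at least 1 TPM, which held for 16724 of 33117 listed genes. Differences are on the log2(TPM + 1) scale, which understates the change of low genes, and are given with their standard error. A gene is said to have risen or fallen only if it passed an adjusted p of 0.05 in limma in the same direction both on the deposited TPM and after median-ratio scaling. Counts of list members cover the tested ones only, and a list is read against the share of all tested genes that passed. Summed levels cover all listed members and are deposited TPM without the scaling. The scaling divides each library by its median ratio, which was 0.927 to 0.965 in PA and 1.03 and 1.10 in Lat-M1. It therefore lowers Lat-M1 sums relative to PA.

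Lat-M1 differed widely from PA. In all, 4013 genes rose (24.0% of those tested) and 1941 fell (11.6%), and none of these 5954 had overlapping values in the 2 groups. Values did not overlap in 11366 of all tested genes (68%). Rises of at least 2-fold numbered 572 (3.42%) and falls of at least 2-fold 460 (2.75%). On the deposited values alone the split was 5558 higher and 1941 lower, and on the scaled values alone 4013 and 3840, since the median difference over all tested genes was 0.16 on deposited and 0.0042 on scaled values. At 2-fold the same splits were 797 and 460, and 572 and 576. Protein-coding genes took 55.5 to 57.3% of the TPM in PA and 63.9 and 67.1% in Lat-M1, and 4 structural RNAs took 29.5 to 31.8% and 18.6 to 21.9%. The labels name 2 library kits without saying for which libraries, so kit and group cannot be told apart. No library stood apart from its group (Pearson r of log2 values at least 0.9834 within groups and 0.9383 to 0.9445 between Lat-M1 and PA, across genes).

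**Figure D1:**
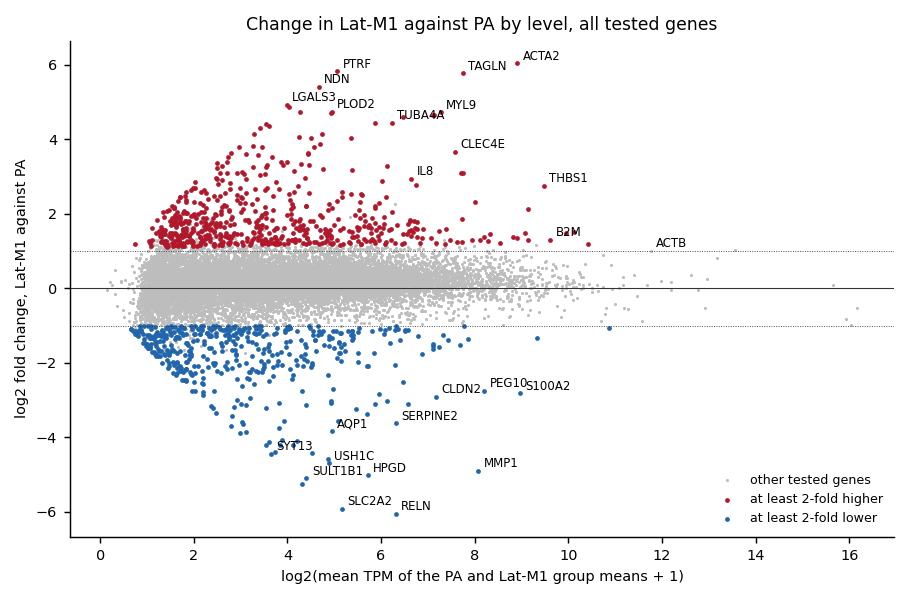
Difference between Lat-M1 and PA (log2 fold change on the TPM + 1 scale) against the level of each of the tested genes (log2 of the mean TPM of the 2 groups, plus 1), 1 point per gene. Red and blue points are the 572 genes at least 2-fold higher and the 460 at least 2-fold lower on both scalings; ACTA2 and TAGLN lie at the top and RELN and SLC2A2 at the bottom.

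Contractile and cytoskeletal genes rose. Of 20 tested smooth muscle contractile genes, 19 rose and 1 fell in Lat-M1, 12 of them by at least 2-fold up, with a median difference of 1.29 on deposited and 1.11 on scaled values. The summed level of all 26 listed genes was 3742, 4058 and 4044 TPM in the PA libraries and 10137 and 10666 TPM in the Lat-M1 libraries. ACTA2, smooth muscle actin, was 13.5, 13.5 and 13.3 TPM in PA and 915 and 983 TPM in Lat-M1 (log2 difference 6.04 ± 0.057, adjusted p = 1.31e-08). MYL9, the regulatory light chain of smooth muscle myosin, was 9.43, 10.2 and 11.3 TPM against 285 and 310 TPM (4.72 ± 0.092, adjusted p = 1.12e-07). CALD1, caldesmon, which binds actin and tropomyosin, was 5.71, 5.9 and 6.46 TPM against 165 and 171 TPM (4.59 ± 0.084, adjusted p = 8.86e-08). All Lat-M1 values of these genes lay far above all PA values. The exception was MYLK, the kinase that phosphorylates that light chain, which fell from 26.5, 27.8 and 28.6 TPM to 4.18 and 4.49 TPM (-2.42 ± 0.076, adjusted p = 9.43e-07). Abundant genes of the actin cortex also rose: cytoplasmic actin ACTB was 2225 to 2369 TPM in PA and 4526 and 4722 TPM in Lat-M1, filamin FLNA 728 to 917 TPM and 1878 and 1940 TPM, and nonmuscle myosin MYH9 472 to 551 TPM and 1440 and 1492 TPM.

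SRF itself rose, from 21.4, 22.2 and 22.4 TPM to 65.3 and 69.3 TPM (1.57 ± 0.067, adjusted p = 4.11e-06), and so did MKL1, its actin-sensing coactivator, from 12.4 to 14.4 TPM to 36.4 and 37.1 TPM (1.38 ± 0.087, adjusted p = 2.5e-05). In that list of 6, 4 rose and 0 fell. Of 30 actin regulators, 16 rose and 1 fell, WASL, an activator of actin branching (-0.34 ± 0.064). PALLD, palladin, which bundles actin, was 14, 12.6 and 13.7 TPM in PA and 74.4 and 86.7 TPM in Lat-M1, and LIMA1, which stabilises filaments, was 15, 14.4 and 14.8 TPM against 75.6 and 79.6 TPM. Caveola genes split. PTRF (cavin-1) rose from at most 0.279 TPM to 63.9 and 65.2 TPM and PRKCDBP (cavin-3) from 13 to 14 TPM to 30.5 and 36.3 TPM, whereas SDPR (cavin-2) fell from 91.2, 93.4 and 96.2 TPM to 8.14 and 8.01 TPM (-3.38 ± 0.053, adjusted p = 6.05e-08).

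Microtubule and myosin families changed by member. TUBA4A, an alpha-tubulin, was 5.37, 5.74 and 5.64 TPM in PA and 137 and 148 TPM in Lat-M1 (4.44 ± 0.063, adjusted p = 5.42e-08), and TUBA1A 18.6, 21.2 and 20.4 TPM against 101 and 103 TPM (2.30 ± 0.074). Of 11 tubulins, 5 rose and 3 fell, 1 of the falls being left without Lat-M1 replicate 1. Among 24 myosin chains, 13 rose and 7 fell. Those that fell by at least 2-fold included MYO15B, at 5.35 to 8.09 TPM in PA and 0.0878 and 0.107 TPM in Lat-M1, and MYO7B, a motor of the brush border, at 3.44 to 5.14 TPM and 0.139 and 0.278 TPM. Of 30 kinesins, 7 rose and 4 fell, near the shares of all tested genes (24.0% and 11.6%), and fewer falls were called without Lat-M1 replicate 1. The largest kinesin rise was KIF13A (29.5, 28.4 and 29.8 TPM against 86.4 and 89.5 TPM).

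Because smooth muscle genes mark fibroblasts and pericytes as well, the defining genes of those cells were read in each library. DCN, LUM, COL1A2, PDGFRA and FAP were at or below 0.0559 TPM in every PA and Lat-M1 library, and NOTCH3 at or below 0.0779 TPM. COL1A1 was 1.04 to 1.37 TPM in PA and 19.2 and 20.6 TPM in Lat-M1, MCAM 1.18 to 1.33 TPM and 11.6 and 12.3 TPM, and RGS5 3.44 to 3.92 TPM and 1.91 and 2.14 TPM. PDGFRB, the receptor that marks pericytes, was 0.341 to 0.461 TPM in PA and 0.712 and 0.974 TPM in Lat-M1, and CSPG4, a pericyte proteoglycan, 0.0105 to 0.0214 TPM and 0.204 and 0.118 TPM. Of the 11 listed markers 3 were tested, of which 2 rose and 1 fell, and the summed level of all 11 went from 6.39 to 6.9 TPM to 33.8 and 36.4 TPM. Endothelial markers were at most 0.0431 TPM in PA and 0.0411 TPM in Lat-M1. Among leukocyte markers PTPRC was at most 0.0121 TPM and CD68 fell from 45.6 to 48.2 TPM to 14.1 and 15.5 TPM. ITGAM, an integrin chain of myeloid cells, rose from 1.36, 1.84 and 1.71 TPM to 4.74 and 4.74 TPM (1.13 ± 0.13, adjusted p = 0.00048). CD14 was at most 0.2 TPM and LYZ at most 0.0493 TPM in these libraries. Of the line's own markers, PAX8, the renal lineage factor, was 65.6, 73.2 and 75.6 TPM in PA and 80.6 and 87.9 TPM in Lat-M1 and was not called after scaling (0.24 ± 0.076, adjusted p = 0.0388 on deposited values). In bulk RNA, fewer cells of a kind and less RNA per cell cannot be told apart.

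Genes of the proximal tubule fell. Of 16 tested transporters of this segment, 11 fell, 10 of them by at least 2-fold, and 1 rose, with a median difference of -1.28 on deposited and -1.45 on scaled values. The summed level of all 30 listed transporters was 1186, 1185 and 1231 TPM in PA and 510 and 519 TPM in Lat-M1. Water channel AQP1 was 53.8, 61.2 and 54.6 TPM in PA and 3.08 and 2.97 TPM in Lat-M1 (-3.84 ± 0.069, adjusted p = 8.23e-08). ABCB1, the drug efflux pump P-glycoprotein, was 53.7, 51.8 and 55.1 TPM against 5.33 and 5.47 TPM (-3.09 ± 0.073, adjusted p = 2.33e-07). Both subunits of the cystine transporter fell: the heavy chain SLC3A1 from 124, 127 and 127 TPM to 29.5 and 29.9 TPM (-2.04 ± 0.052), and the light chain SLC7A9 from 3.72, 4.72 and 3.97 TPM to 0 and 0.0377 TPM (-2.33 ± 0.12). The glucose transporter SLC2A2 went from 68.7 to 71.4 TPM to 0.11 and 0.229 TPM. The organic cation carrier SLC22A4 was the one that rose, from 2.41 to 2.65 TPM to 5.53 and 5.9 TPM (0.93 ± 0.1).

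**Figure D2:**
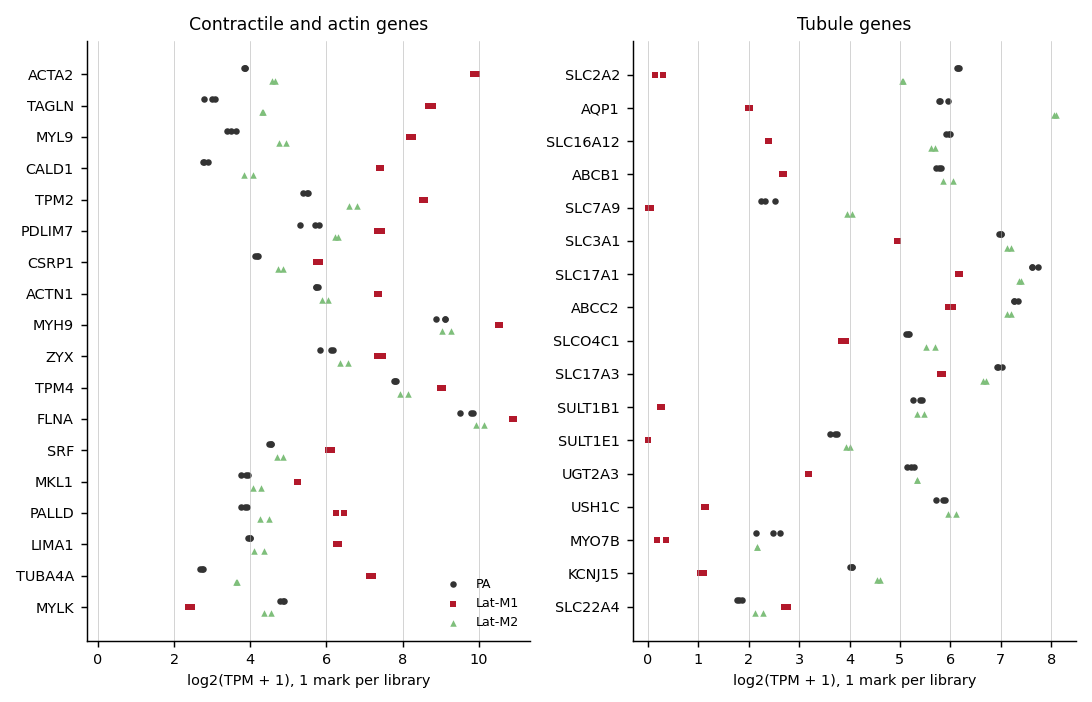
Level of contractile and actin genes (left) and tubule genes (right) as log2(TPM + 1), 1 mark per library: 3 PA circles, 2 Lat-M1 squares and 2 Lat-M2 triangles per gene. Lat-M1 squares lie above all PA circles for every contractile gene drawn except MYLK, and below them for every tubule gene drawn except SLC22A4.

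Among apical structure genes more fell than rose, but on deposited TPM their summed levels did not drop as those of the transporters did. Of 16 microvillus scaffold genes 10 fell, 6 of them by at least 2-fold, and 5 rose, with a median of -0.67 (-0.84 scaled). The summed level of all 20 listed was 1024, 1068 and 1068 TPM in PA and 1147 and 1204 TPM in Lat-M1. USH1C, harmonin, which ties microvillus tips together, was 51.4, 58.7 and 57 TPM in PA and 1.21 and 1.17 TPM in Lat-M1 (-4.69 ± 0.08, adjusted p = 6.17e-08). VIL1, villin, went the other way, from 4.03 to 4.8 TPM to 12.3 and 12.5 TPM (1.29 ± 0.092). So did PDZK1IP1, from 94.3 to 111 TPM to 214 and 231 TPM (1.10 ± 0.079). Among 8 brush border peptidases and receptors 4 fell and 1 rose. MME, neprilysin, was 2.02 to 2.33 TPM in PA and 0.0591 and 0.0614 TPM in Lat-M1. The 1 that rose was the more abundant ANPEP, from 51 to 55.6 TPM to 79.2 and 85.1 TPM (0.61 ± 0.063). The summed level of all 18 listed was 148, 158 and 160 TPM in PA and 144 and 154 TPM in Lat-M1. The transcription factor HNF4G fell too, and was 112, 105 and 108 TPM against 14.3 and 14.6 TPM (-2.83 ± 0.055, adjusted p = 1.12e-07). POU3F3, a factor of the distal nephron, rose from 0.609 to 0.772 TPM to 14 and 13.5 TPM (3.13 ± 0.11). Of 15 kidney transcription factors 3 rose and 6 fell.

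Conjugating enzymes, which make drugs and hormones soluble for excretion, fell as a group. Of 19 tested glucuronosyl-, sulfo- and acetyltransferases 14 fell and 2 rose (median -0.55, -0.73 scaled). The list was drawn by symbol, and 1 of the 2 rises was NAT10, which is not a conjugating enzyme of drugs (0.38 ± 0.09). The NAT10 call was lost without Lat-M1 replicate 1. Several genes of the list share exons or are near-identical copies, so single members are uncertain and the counts are not of independent genes. SULT1E1, oestrogen sulfotransferase, was 12.5, 11.3 and 12.2 TPM in PA and listed at 0 in both Lat-M1 libraries. SULT1B1, which sulfates phenols and thyroid hormone, was 41, 37.3 and 42.2 TPM against 0.218 and 0.186 TPM. UGT2B7 rose, from 92.3 to 99.3 TPM to 146 and 153 TPM (0.64 ± 0.056). Of 10 glutathione transferases 6 fell and 0 rose. Of 20 potassium channels 7 fell, 5 by at least 2-fold, and 4 rose (2 rises without Lat-M1 replicate 1). The inward rectifier KCNJ15 was 15.6, 15 and 15.5 TPM in PA and 1.18 and 1.05 TPM in Lat-M1 (-2.95 ± 0.068), and its relative KCNJ13 17.8, 17.4 and 17.1 TPM against 5.38 and 4.11 TPM (-1.69 ± 0.097).

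Across all 189 tested solute carriers, 58 rose and 46 fell, 6 and 23 of them by at least 2-fold. The count of rises was 38 without Lat-M1 replicate 2. The prostaglandin carrier SLCO2A1 went against the list's larger changes, from 0.253, 0.296 and 0.303 TPM to 16.1 and 18 TPM (3.81 ± 0.12, adjusted p = 9.75e-07). Of 23 amino acid transporters 14 rose and 3 fell, all 3 by at least 2-fold. SLC7A11, the cystine-glutamate exchanger, was 45.3, 44.1 and 46.4 TPM in PA and 74.5 and 76.3 TPM in Lat-M1 (0.72 ± 0.062). Ion channels of the calcium, sodium, chloride and TRP families rose in 9 of 29 and fell in 5 (2 falls without Lat-M1 replicate 1), led by the irritant-gated channel TRPA1, which was 0.951, 0.914 and 1.13 TPM in PA and 13.9 and 14.7 TPM in Lat-M1 (2.94 ± 0.15).

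**Figure D3:**
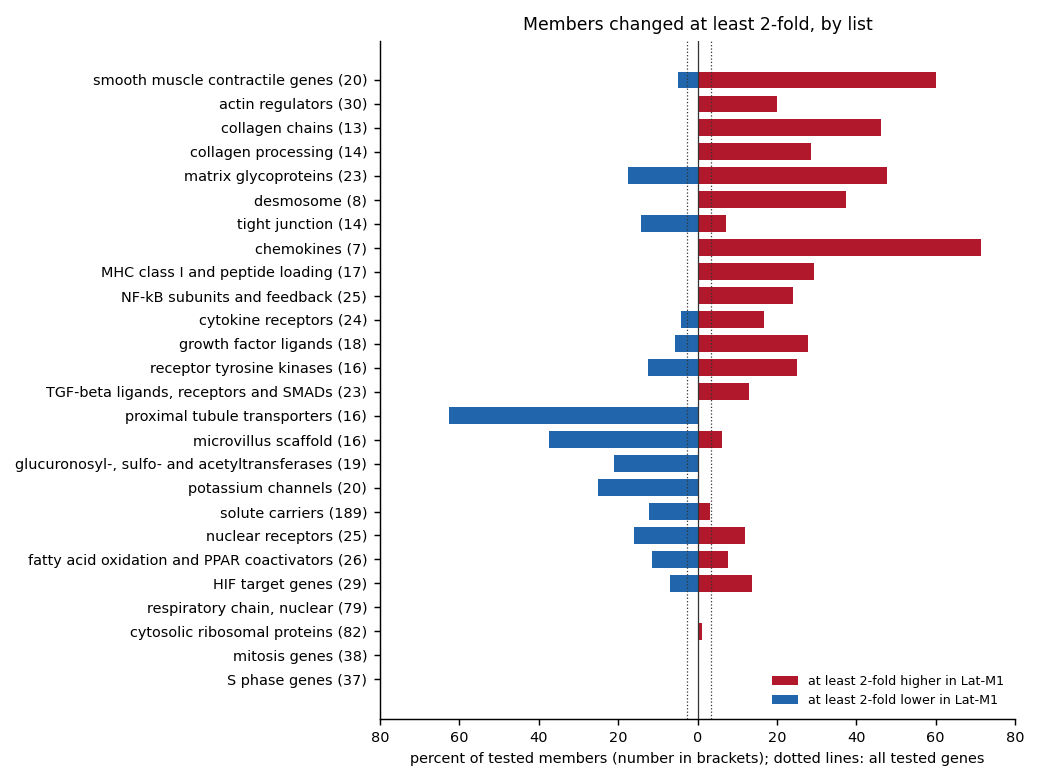
Percent of the tested members of each list drawn (number tested in brackets) that were at least 2-fold higher (red, to the right) or lower (blue, to the left) in Lat-M1 than in PA on both scalings. Dotted lines give the shares over all tested genes, 3.42% higher and 2.75% lower; of the lists drawn, the contractile and chemokine bars reach farthest right and the proximal tubule bar farthest left, while mitosis and S phase genes have no bar.

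Matrix genes rose for the most part. Of 13 collagen chains 8 rose, 6 by at least 2-fold, and 0 fell (median 1.00, 0.83 scaled), and the summed level of all 43 listed chains was 611, 746 and 728 TPM in PA and 1928 and 1970 TPM in Lat-M1. COL12A1, a chain that decorates fibrils, was 0.848, 0.677 and 0.855 TPM against 8.48 and 9.4 TPM (2.47 ± 0.13), and COL22A1 was listed at 0 in all PA libraries and 9.04 and 9.66 TPM in Lat-M1. Both were a small part of the summed level, and the chains that carried most of its rise are not named here. Of 14 enzymes that process collagen 11 rose and 0 fell. PLOD2, the lysyl hydroxylase that sets stable collagen cross-links, was 1.44, 1.08 and 1.16 TPM in PA and 57.7 and 59.4 TPM in Lat-M1 (4.74 ± 0.097, adjusted p = 1.33e-07). LEPREL1, a prolyl hydroxylase, was 7.06, 6.4 and 6 TPM against 32.1 and 34.8 TPM (adjusted p = 6.79e-06).

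Matrix glycoproteins split into strong rises and strong falls, 13 and 7 of 23, with 11 and 4 of them by at least 2-fold. CTGF, a matricellular growth regulator, was 0.571, 0.632 and 0.646 TPM in PA and 18 and 18.4 TPM in Lat-M1 (3.57 ± 0.12, adjusted p = 1.27e-06). SPARC, which binds collagen, was at most 0.126 TPM in PA and 8.44 and 9.93 TPM in Lat-M1 (3.23 ± 0.12). FSTL1 was 4.57, 4.17 and 4.21 TPM against 47.3 and 49.2 TPM (3.21 ± 0.068). On the falling side, EDIL3, an integrin ligand, was 34.2, 33.1 and 34.6 TPM in PA and 0.919 and 1.16 TPM in Lat-M1 (-4.10 ± 0.084), and RELN, reelin, 151, 153 and 162 TPM against 1.34 and 1.35 TPM (-6.06 ± 0.061). TNFAIP6, which modifies hyaluronan, rose from 2.02 to 2.32 TPM to 41.8 and 44.2 TPM, and HAS3, a hyaluronan synthase, fell from 18.1 to 19.1 TPM to 4.41 and 4.93 TPM. LAMB3, a laminin chain of epithelial basement membrane, was 32.9 to 40.2 TPM in PA and 119 and 128 TPM in Lat-M1 (1.71 ± 0.1).

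Proteinases that cut the matrix and their inhibitors changed by member. Interstitial collagenase MMP1 was 533, 501 and 529 TPM in PA and 15.5 and 17.4 TPM in Lat-M1 (-4.90 ± 0.072, adjusted p = 6.05e-08), whereas gelatinase MMP2 was 0.333, 0.176 and 0.0901 TPM against 4.87 and 5.02 TPM (2.31 ± 0.19). TIMP3, an inhibitor of such enzymes, was 1.14, 1.02 and 0.888 TPM against 22.1 and 22.5 TPM (3.53 ± 0.11). SERPINE2, an inhibitor of thrombin and plasminogen activators, fell from 147, 145 and 147 TPM to 10.8 and 11 TPM (-3.63 ± 0.058). ADAM19, a sheddase, rose from 20 to 20.4 TPM to 110 and 119 TPM (2.44 ± 0.071). ADAMTSL3, which the ADAMTS list took in by its symbol and which is not itself a proteinase, rose as well. It was 2.24 to 2.31 TPM in PA and 22.2 and 23.3 TPM in Lat-M1 (2.86 ± 0.084).

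Most adhesion genes of the desmosome rose, while more tight junction genes fell than rose. Of 8 desmosome genes 7 rose and 0 fell. DSC2, desmocollin, was 0.412, 0.465 and 0.289 TPM in PA and 34.9 and 37.5 TPM in Lat-M1 (4.74 ± 0.095, adjusted p = 1.33e-07), and plakoglobin JUP 12.2, 15.7 and 16 TPM against 108 and 119 TPM (2.88 ± 0.13). Of 14 tight junction genes 8 fell and 3 rose (median -0.41, -0.59 scaled). The summed level of all 24 listed did not fall on deposited TPM: it was 1449, 1424 and 1475 TPM in PA and 1497 and 1557 TPM in Lat-M1. The scaling lowers Lat-M1 relative to PA, so this does not hold for scaled values. CLDN2, the claudin of leaky proximal tubule junctions, was 250, 255 and 258 TPM in PA and 31.2 and 34.4 TPM in Lat-M1 (-2.92 ± 0.061, adjusted p = 1.38e-07), and OCLN, occludin, 18.8, 17.5 and 17.7 TPM against 3.93 and 3.82 TPM (-1.96 ± 0.064). TJP1, the scaffold ZO-1, rose, from 40.5 to 42.7 TPM to 102 and 107 TPM (1.29 ± 0.087). The abundant claudin CLDN1 rose as well, from 364 to 394 TPM to 695 and 733 TPM (0.90 ± 0.065). E-cadherin (CDH1) and the tumour marker CA9 were near 0 in both groups and were not tested.

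Integrin chains moved in both directions. Of 9 tested alpha chains 5 rose and 2 fell (1 fall without Lat-M1 replicate 1), and of 6 beta chains 2 rose and 1 fell. The beta chain ITGB3, which binds vitronectin and fibronectin, was 10.4, 9.58 and 9.57 TPM in PA and 265 and 274 TPM in Lat-M1, and its partner ITGAV 285, 270 and 286 TPM against 781 and 803 TPM (adjusted p = 2.5e-06). The collagen-binding chain ITGA1 was 1.22, 1.35 and 1.25 TPM against 8.11 and 7.69 TPM (1.97 ± 0.12). ITGB8, another beta chain that pairs with ITGAV, fell from 19, 19.5 and 19.7 TPM to 10.8 and 10.8 TPM (-0.78 ± 0.067, adjusted p = 0.00011). VCAM1, the ligand of leukocyte integrins, was 3.75, 4.07 and 3.39 TPM in PA and 76 and 77.2 TPM in Lat-M1 (4.03 ± 0.085, adjusted p = 1.38e-07). Of 24 protocadherins 23 rose, 2 of them by at least 2-fold. Most of these are gamma-cluster genes that share their last exons and had near-identical values, and the count was 7 without Lat-M1 replicate 1.

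Inflammatory genes rose broadly. Of 7 tested chemokines 5 rose, all by at least 2-fold, and 0 fell (median 1.83, 1.67 scaled), and the summed level of all 17 listed chemokines was 38.1, 41.1 and 40.5 TPM in PA and 242 and 267 TPM in Lat-M1. CXCL1 was at most 0.0671 TPM in PA and 4.87 and 5.29 TPM in Lat-M1 (2.57 ± 0.19). TNF, the cytokine that activates NF-kB, was 1.72, 2.49 and 2.71 TPM in PA and 38.5 and 40.1 TPM in Lat-M1 (3.62 ± 0.13, adjusted p = 2.14e-06). LTB, its relative lymphotoxin beta, fell from 10, 11.8 and 12.9 TPM to 1.96 and 2.11 TPM (-2.05 ± 0.16). NF-kB subunits and feedback genes rose in 17 of 25 and fell in 2 (1 fall without Lat-M1 replicate 1). TNIP1, a partner of TNFAIP3, was 46.3, 52.1 and 47.8 TPM in PA and 140 and 147 TPM in Lat-M1 (1.54 ± 0.076), and TNFAIP3 7.84, 7.83 and 8.78 TPM against 26.9 and 29.4 TPM (1.67 ± 0.077). These are 2 of the genes whose promoters held an NF-kB site.

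Receptors for cytokines rose in 14 of 24 and fell in 3. IL15RA was 1.36, 2.14 and 2.08 TPM in PA and 7.94 and 8.07 TPM in Lat-M1 (1.67 ± 0.15), and the costimulatory receptor TNFRSF9 2.02, 2.1 and 2.61 TPM against 15.2 and 14.1 TPM (2.27 ± 0.12). IL31RA fell from 15.2, 15.1 and 16.3 TPM to 2.59 and 2.52 TPM (-2.22 ± 0.078). CLEC4E, a C-type lectin that senses damaged cells, was 27.1, 27.7 and 26.7 TPM in PA and 337 and 373 TPM in Lat-M1 (3.66 ± 0.086, adjusted p = 2.33e-07). MRC2, which takes up collagen, was 9.89, 11.8 and 11.5 TPM against 66.8 and 71.1 TPM (2.54 ± 0.093). Complement genes rose in 7 of 11 and fell in 2, 1 of which was left without Lat-M1 replicate 1: the protease C1S was 0.25 to 0.327 TPM in PA and 6.54 and 7.5 TPM in Lat-M1, and CFI, an inhibitor, fell from 4.48 to 5.35 TPM to 0.899 and 0.506 TPM.

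Antigen presentation genes rose with them. Of 17 genes of MHC class I and its peptide loading 15 rose and 0 fell (median 1.00, 0.83 scaled), and CD74, the class II invariant chain, was 0.129, 0.191 and 0.14 TPM in PA and 10.7 and 11.3 TPM in Lat-M1 (3.38 ± 0.11). Interferon response genes were mixed, with 14 of 33 higher and 3 lower. GBP1, a guanylate-binding protein, was 21.5, 19.6 and 20.2 TPM against 92.7 and 97.5 TPM (2.16 ± 0.083), and IFITM3 9.91, 10.4 and 10 TPM against 40.2 and 42.1 TPM (1.92 ± 0.06). IFIT1, an RNA sensor induced by type I interferon, fell from 10.9, 9.04 and 11.1 TPM to 4.31 and 4.04 TPM (-1.13 ± 0.1). CD274 (PD-L1) was 6, 5.38 and 6.28 TPM in PA and 11.7 and 12.6 TPM in Lat-M1 (0.93 ± 0.098).

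Calcium-binding S100 genes and galectins moved by member. S100A2 was 892, 868 and 850 TPM in PA and 122 and 124 TPM in Lat-M1 (-2.81 ± 0.064, adjusted p = 2.05e-07), whereas S100A4 was 86.9, 93.6 and 84.9 TPM against 193 and 207 TPM (1.17 ± 0.067). Of 10 S100 genes 1 rose and 5 fell. LGALS3, galectin-3, was at most 0.0372 TPM in PA and 28.4 and 30.8 TPM in Lat-M1, and LGALS2 went the other way, from 24.3, 30.4 and 25.7 TPM to 0.456 and 0.83 TPM (-4.08 ± 0.13, adjusted p = 9.84e-07). The abundant LGALS1 was 1095 to 1263 TPM in PA and 2114 and 2319 TPM in Lat-M1 (0.89 ± 0.084).

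Growth factor ligands rose in 11 of 18, 5 by at least 2-fold, and fell in 1, and receptor tyrosine kinases rose in 7 of 16 and fell in 5. KITLG, the ligand of the receptor KIT, was 10.4, 8.89 and 10.5 TPM in PA and 52.8 and 56.6 TPM in Lat-M1 (2.35 ± 0.1, adjusted p = 5.03e-06). HBEGF, a ligand of the EGF receptor, was 12.5, 13.6 and 14.3 TPM against 52.1 and 51.6 TPM (1.87 ± 0.077), and PDGFB 46.3, 55 and 51.7 TPM against 154 and 161 TPM (1.61 ± 0.081). PROS1, protein S, a ligand of the receptors TYRO3 and MERTK, fell from 42.8, 43.5 and 42.8 TPM to 14 and 14.4 TPM (-1.54 ± 0.054). Its receptor TYRO3 rose from 5.48 to 5.86 TPM to 18.2 and 19.1 TPM (1.57 ± 0.069). AXL, a receptor of the same family, fell from 357 to 376 TPM to 214 and 213 TPM (-0.79 ± 0.055). DDR1, a collagen receptor, was 0.124, 0.0954 and 0.146 TPM in PA and 10 and 9.97 TPM in Lat-M1 (3.29 ± 0.14), and ERBB3 went from 4.05, 4.58 and 4.44 TPM to 0.185 and 0.102 TPM (-2.23 ± 0.11). MET and EGFR were not called (-0.07 and 0.25).

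Among TGF-beta pathway genes 11 of 23 rose and 4 fell. INHBA, the activin A subunit, was 32.5, 29.9 and 32 TPM in PA and 96.1 and 102 TPM in Lat-M1 (1.62 ± 0.079), and SMAD3, a transducer of this pathway, 22.1, 21.9 and 23.5 TPM against 52.3 and 57.3 TPM (1.25 ± 0.063). BAMBI, a decoy receptor, fell from 32.3, 30.8 and 31.3 TPM to 5.94 and 7.49 TPM (-2.08 ± 0.096). YAP and TEAD genes and targets rose in 16 of 30 and fell in 6. IGF-binding proteins changed in all 4 tested members: IGFBP3 was 2.81, 2.51 and 2.37 TPM in PA and 30 and 31.6 TPM in Lat-M1 (3.16 ± 0.089), IGFBP2 at most 0.0647 TPM and 3.83 and 3.21 TPM, and IGFBP7 152 to 163 TPM and 383 and 397 TPM. IGFBP6 fell from 19, 26.4 and 20.6 TPM to 7.44 and 7.43 TPM (-1.43 ± 0.13). Notch genes rose in 9 of 16 and fell in 0, with the target HES1 at 6.46 to 7.48 TPM in PA and 25.4 and 25.8 TPM in Lat-M1.

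Enzymes of prostaglandin and sphingosine phosphate turnover rose in 4 of 11 and fell in 4. For prostaglandins, PTGES, which makes prostaglandin E, was 40.9, 42.1 and 46.2 TPM in PA and 1.04 and 1.08 TPM in Lat-M1 (-4.41 ± 0.074), and HPGD, which degrades it, 102, 96.7 and 103 TPM against 2.09 and 2.18 TPM (-5.02 ± 0.06, adjusted p = 2.34e-08). For sphingosine phosphate, the kinase SPHK1 was 18.2, 21.4 and 19.4 TPM against 93.1 and 96.9 TPM (2.22 ± 0.086), and the phosphatase SGPP2 1.08, 1.33 and 1.44 TPM against 56.4 and 59.8 TPM (4.70 ± 0.11). In each pair, the enzyme that makes the mediator and the enzyme that removes it moved the same way. ADORA2B, an adenosine receptor, fell from 12.9, 12.5 and 12 TPM to 0.701 and 0.653 TPM (-3.00 ± 0.1).

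Serine and lipid metabolism held large changes in single genes. PHGDH, the first enzyme of serine synthesis, was 0.0366, 0.155 and 0.0791 TPM in PA and 31 and 30.7 TPM in Lat-M1 (4.87 ± 0.13, adjusted p = 5.29e-07), while GLDC, which breaks down glycine, fell from 93.1, 96 and 98 TPM to 46 and 45 TPM (-1.06 ± 0.066). Fatty acid oxidation genes fell in 13 of 26 and rose in 5, but in 8 without Lat-M1 replicate 1. PPARGC1A, the coactivator of mitochondrial genes, was 19.7, 19.2 and 21.3 TPM in PA and 1.33 and 1.24 TPM in Lat-M1 (-3.20 ± 0.073), and the lipid-sensing receptor PPARD 2.67, 2.32 and 2.65 TPM against 32.5 and 37.1 TPM (3.33 ± 0.094). PLIN2, the coat protein of lipid droplets, which fill clear cell tumours, was 26.6, 28 and 27.1 TPM against 1.57 and 1.21 TPM (-3.57 ± 0.083, adjusted p = 2.19e-07). LIPG, endothelial lipase, rose from 8.81 to 9.63 TPM to 60.1 and 61.4 TPM.

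Of 29 HIF target genes 13 rose and 7 fell. EPAS1, a HIF alpha subunit, was 0.563, 0.406 and 0.548 TPM in PA and 3.01 and 2.98 TPM in Lat-M1 (1.41 ± 0.16). STC1 was listed at 0 in all PA libraries and 5.85 and 6.49 TPM in Lat-M1, and STC2 fell from 3.1 to 3.56 TPM to 0.2 and 0.288 TPM. AK4, a mitochondrial adenylate kinase, was 1.32 to 1.76 TPM against 11.7 and 11.7 TPM (2.37 ± 0.11). Nuclear genes of the respiratory chain rose in 6 of 79 and fell in 22, none by 2-fold. The count of falls was 7 without Lat-M1 replicate 1, and that of rises 2 without replicate 2. The 13 mitochondrially encoded messenger RNAs had 0 calls by limma.

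Mitosis and S phase genes held 0 changes of 2-fold by limma. Calls of any size among mitosis genes were about as frequent as over all tested genes (24.0% higher and 11.6% lower). Of 38 mitosis genes 9 rose and 5 fell, with 1 fall left without Lat-M1 replicate 1, and of 37 S phase genes 13 rose and 3 fell, with 7 rises and 1 fall left without the same library. MKI67, the proliferation antigen, was 90, 89 and 95.8 TPM in PA and 106 and 117 TPM in Lat-M1 (0.28 ± 0.073), a call lost when any 1 of the PA or Lat-M1 libraries was left out, by the same rule of both scalings (adjusted p 0.0273 to 0.139 on deposited values), and when values were rescaled to protein-coding genes alone (0.06, adjusted p = 0.209). Of 20 G1 cyclins and CDK inhibitors 6 rose and 2 fell, beside 24.0% and 11.6% of all tested genes, and 4 rises and 1 fall were left without Lat-M1 replicate 1. The inhibitor CDKN1A was 188, 184 and 190 TPM against 321 and 343 TPM (0.82 ± 0.062), and the inhibitor CDKN2B 19.5, 20.9 and 20.3 TPM against 46.5 and 47.4 TPM (1.17 ± 0.086). Another inhibitor, CDKN1B, was 48.5, 51.3 and 50 TPM against 41 and 41.5 TPM (-0.27 ± 0.074, adjusted p = 0.0222), a fall that was not called without PA replicate 2 or 3 or either Lat-M1 library (adjusted p 0.0587 to 0.103). Of 25 p53 target genes 17 rose and 1 fell, 1 of them by at least 2-fold, PLK2, a stress kinase, at 321, 323 and 325 TPM in PA and 784 and 807 TPM in Lat-M1. Without Lat-M1 replicate 1, 12 rose and 0 fell.

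Genes tied to tumour dormancy in other systems rose in 8 of 17 and fell in 3. BHLHE41, a circadian repressor in this list, was 2.58, 2.31 and 1.98 TPM in PA and 36.1 and 41.9 TPM in Lat-M1 (3.60 ± 0.11, adjusted p = 9.17e-07). NR2F1, the orphan receptor most often named in that setting, fell from 4.72, 4.93 and 5.06 TPM to 0.628 and 0.839 TPM (-1.77 ± 0.12, adjusted p = 3.13e-05). Nuclear receptors fell in 9 of 25 and rose in 5, with 5 falls without Lat-M1 replicate 2. The thyroid hormone receptor THRB was 13.9, 13.8 and 15.2 TPM against 1.85 and 1.86 TPM (-2.42 ± 0.088). Forkhead genes rose in 8 of 18 and fell in 2 (1 without Lat-M1 replicate 1), with FOXO1 at 13.7 to 15.1 TPM in PA and 41.9 and 46.5 TPM in Lat-M1. SNAI2, a factor of the mesenchymal programme, rose from 4.19 to 4.52 TPM to 24.6 and 28.8 TPM (2.38 ± 0.088). CDH2, N-cadherin, was 236, 227 and 235 TPM against 413 and 430 TPM (0.85 ± 0.06). VIM, vimentin, was 2193 to 2225 TPM in PA and 2311 and 2428 TPM in Lat-M1 and was not called (0.10, adjusted p = 0.271).

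Guidance and patterning receptors changed by member. Of 14 ephrins and Eph receptors 5 rose and 3 fell: EPHA7, an abundant receptor here, was 515, 495 and 530 TPM in PA and 265 and 256 TPM in Lat-M1 (-0.97 ± 0.056). The semaphorin receptor PLXND1 was 6.18, 8.04 and 7.67 TPM against 28.1 and 30 TPM (1.86 ± 0.1), and NRP1, neuropilin, fell from 34.3, 32.3 and 34.2 TPM to 12.9 and 11.9 TPM (-1.37 ± 0.07). NTN1, netrin, rose from 3.24, 3.82 and 3.53 TPM to 16.9 and 17.7 TPM (2.02 ± 0.092), and FLRT3, a ligand of netrin receptors of the UNC5 family, fell from 13.1, 12.5 and 13.5 TPM to 1.2 and 1.38 TPM (-2.62 ± 0.079). Of 26 WNT pathway genes 10 rose and 5 fell (3 falls without Lat-M1 replicate 1). The ligand WNT5B fell from 4.03, 4.16 and 4.61 TPM to 0.197 and 0.296 TPM (-2.08 ± 0.15), and the receptor ROR1 rose from 8.16, 7.61 and 8.74 TPM to 23.7 and 25.1 TPM (1.47 ± 0.076). Tetraspanins, membrane organisers, rose in 6 of 13 and fell in 3, with TSPAN18 at 0.771 to 1.03 TPM in PA and 10.4 and 11.3 TPM in Lat-M1 and TSPAN1 at 11.3 to 12.5 TPM and 1.27 and 1.45 TPM.

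Stress and organelle genes held a few large changes within lists that were mixed. CRYAB, a small heat shock protein, was 9.65, 9.09 and 9.99 TPM in PA and 38.4 and 42.8 TPM in Lat-M1 (1.97 ± 0.081), in a list of 68 of which 21 rose and 7 fell (4 falls without Lat-M1 replicate 1). SOD2, the mitochondrial superoxide dismutase, was 37, 34.5 and 36.8 TPM against 106 and 113 TPM (1.58 ± 0.087), and HMOX1, haem oxygenase, fell from 34.7, 39.2 and 34.2 TPM to 9.75 and 11.4 TPM (-1.68 ± 0.097). Among regulators of lysosome genes, MITF fell from 34.6, 31.2 and 33.5 TPM to 7.57 and 8.01 TPM (-1.95 ± 0.077) and its relative TFEB rose from 1.33, 1.99 and 1.83 TPM to 5.65 and 5.74 TPM (1.31 ± 0.14). AKR1B1, aldose reductase, rose from 266 to 269 TPM to 670 and 707 TPM (1.36 ± 0.058), and ALDH1A1, which makes retinoic acid, fell from 61.6 to 63.8 TPM to 27.7 and 26.4 TPM (-1.18 ± 0.056). VAMP8, a SNARE of lysosomal fusion, had group means of 29 and 92.4 TPM (1.64 ± 0.072), and RAB27A, a GTPase of secretion, of 5.58 and 19.4 TPM (1.63 ± 0.11).

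Large families of the protein and gene control machinery were also read, beside rises in 24.0% and falls in 11.6% of all tested genes. Rises of ribosomal proteins were near that share. Of 82 cytosolic ribosomal proteins 22 rose, 1 of them (RPL39L, a paralogue of low expression) by at least 2-fold, and 1 fell, and the rises numbered 12 without Lat-M1 replicate 1. The 37 proteasome genes had 17 rises and 0 falls, with a small median difference of 0.24 on deposited and 0.06 on scaled values. Again 1 rise was of at least 2-fold, the interferon-induced subunit PSMB9 (5.79, 5.5 and 5.61 TPM against 13.9 and 15.3 TPM, 1.23 ± 0.099). Of 397 zinc finger genes 68 rose and 57 fell, 11 and 6 of them by at least 2-fold, and without Lat-M1 replicate 1 the counts were 42 and 30. ZNF22 led the falls, with group means of 25.3 TPM in PA and 0.941 TPM in Lat-M1 (-3.76 ± 0.082).

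Abundant structural RNAs fell. Of 7 structural RNAs 4 fell and 0 rose: RN7SL1, the RNA of the signal recognition particle, was 103994, 81173 and 81941 TPM in PA and 49787 and 40813 TPM in Lat-M1 (-0.97 ± 0.16), and RN7SK, a regulator of transcription elongation, 85886, 86966 and 88082 TPM against 63162 and 56657 TPM (-0.54 ± 0.074). Which kit each library had is not stated, and its part in these falls was not tested. Of 31 long noncoding RNAs with assigned names 4 rose (2 without Lat-M1 replicate 1) and 6 fell. MIR205HG was 34.3, 36.3 and 37.7 TPM in PA and 7.58 and 8.13 TPM in Lat-M1 (-2.07 ± 0.067), UCA1 6.44, 6.93 and 6.73 TPM against 0.901 and 1.28 TPM (-1.89 ± 0.11), and LUCAT1 2.23, 2.22 and 2.82 TPM against 7.85 and 9.24 TPM (1.48 ± 0.13). Among imprinted genes PEG10 fell from 520, 491 and 523 TPM to 72.9 and 78 TPM (-2.74 ± 0.076).

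Some genes went from near absence to clear expression or the reverse. Under 0.5 TPM in every PA library and at least 5 TPM in both Lat-M1 libraries were 31 genes, 27 of them protein-coding. The opposite pattern held for 27 genes, 21 of them protein-coding. Among the 31 were RBMS3, an RNA-binding protein (at most 0.0596 TPM and 21.2 and 21.6 TPM), GYPC, a membrane glycophorin (at most 0.0635 TPM and 18.8 and 20 TPM), and NDN, necdin, a growth suppressor that is imprinted (at most 0.236 TPM and 48.5 and 49 TPM). Among the 27 were SYT13, a synaptotagmin (22.4 to 23.2 TPM and 0.122 and 0.0722 TPM), SUCNR1, the succinate receptor (21.6 to 22.4 TPM and 0.338 and 0.305 TPM), and GPRC5A, an orphan receptor of epithelia (13.9 to 14.5 TPM and 0.279 and 0.174 TPM). Of the 31, the Lat-M2 libraries were both under 0.5 TPM for 17 and both at least 5 TPM for 4, so these 17 were under that level in every library outside Lat-M1. Of the 27, they were both at least 5 TPM for 21 and both under 0.5 TPM for 0.

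**Figure D4:**
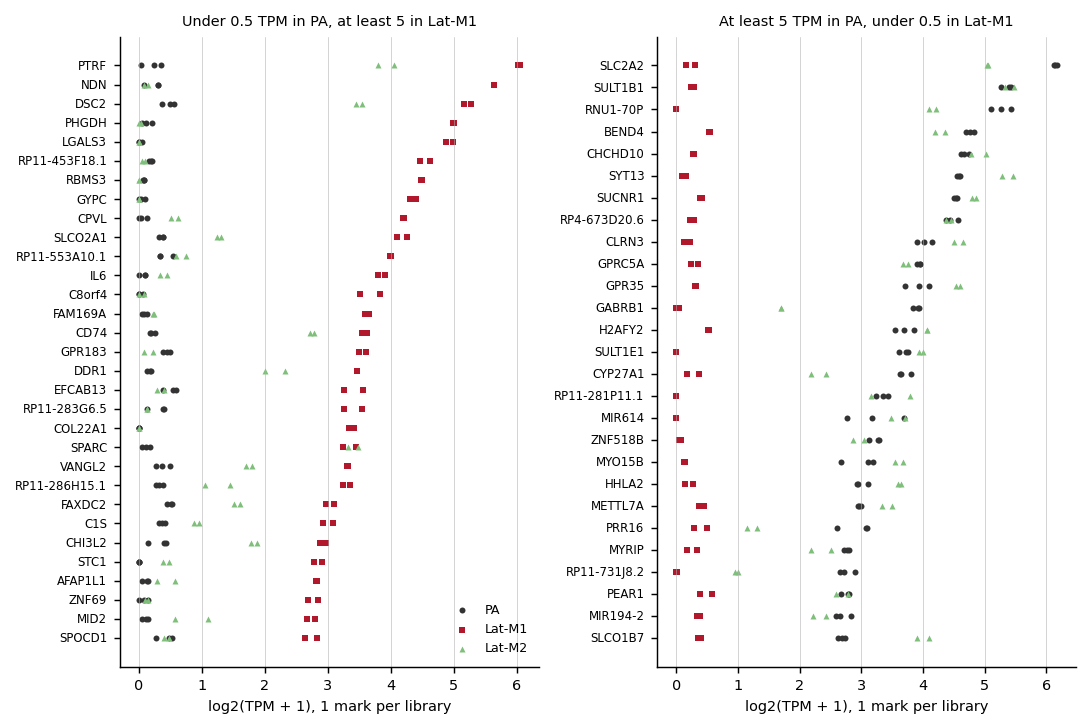
The 31 genes under 0.5 TPM in every PA library and at least 5 TPM in both Lat-M1 libraries (left) and the 27 with the reverse pattern (right), as log2(TPM + 1) with 1 mark per library. Lat-M2 triangles are near the PA circles for SULT1B1 and NDN, and between the 2 groups for DSC2 and PTRF.

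Set directly against Lat-M2, Lat-M1 had 3296 genes higher (19.7% of those tested) and 2643 lower (15.8%). Lat-M2 had 1246 genes higher than PA (7.45%) and 375 lower (2.24%). Both pairs share the PA libraries in these contrasts, so the direct test is the one used here. Of the 20 contractile genes 18 were higher in Lat-M1 than in Lat-M2 and 1 lower. ACTA2 was 23.9 and 22.5 TPM in Lat-M2 (difference from Lat-M1 5.29, adjusted p = 4.37e-08), and MYL9 29.7 and 26.2 TPM (3.37, adjusted p = 1.29e-06). Proximal tubule transporters were lower than in Lat-M2 in 11 of 16 and higher in 2. The summed level of all 30 listed was 1378 and 1323 TPM in Lat-M2, above all PA libraries on deposited TPM. AQP1, a member of this list, reached 265 and 272 TPM in Lat-M2, against 53.8 to 61.2 TPM in PA. That gap is larger than the one between the sums, so AQP1 alone puts the Lat-M2 sum above PA. The AQP1 difference between the pairs was -6.06 (adjusted p = 4.37e-08). Genes of the list of conjugating enzymes, which includes NAT10 and genes that share exons, were lower than in Lat-M2 in 14 of 19 and higher in 1.

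Other gene groups showed the same direction of that difference. Collagen chains were higher than in Lat-M2 in 9 of 13 and lower in 0, MHC class I genes in 14 of 17 and 0, and NF-kB genes in 16 of 25 and 2. PHGDH was 0 and 0.0181 TPM in Lat-M2 (4.98, adjusted p = 1.17e-06), and NDN 0.104 and 0.0539 TPM (5.53, adjusted p = 5.92e-07). For a few genes the pairs could not be separated: SPARC was 10.1 and 8.97 TPM in Lat-M2 (-0.05, adjusted p = 0.8), LTB 1.6 and 2.52 TPM (0.00, adjusted p = 0.99), and VIL1 12.3 and 10.9 TPM (0.09, adjusted p = 0.531). S100A4 was higher still in Lat-M2, at 431 and 402 TPM (-1.06, adjusted p = 5.5e-05).

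By chromosome, the share of changed genes varied. On chromosome 15, 46 of 552 tested genes (8.33%) rose at least 2-fold and 3 (0.543%) fell, against 3.42% and 2.75% over all tested genes, and the median difference was 0.61 (0.46 scaled). Lat-M2 against PA had a median of 0.20 on that chromosome. Genes that rose there at least 2-fold include NDN, ADAMTSL3, TYRO3, TJP1 and SMAD3, all described above. Chromosome 5 had a median of 0.42 (0.26 scaled) and chromosome 22 of 0.41 (0.25 scaled). On chromosome 6, 52 of 852 tested genes (6.1%) rose at least 2-fold, and on chromosome 4, 40 of 605 (6.61%) fell. Genes were placed by the GENCODE 29 annotation, and DNA copy number was not analysed here.

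**Figure D5:**
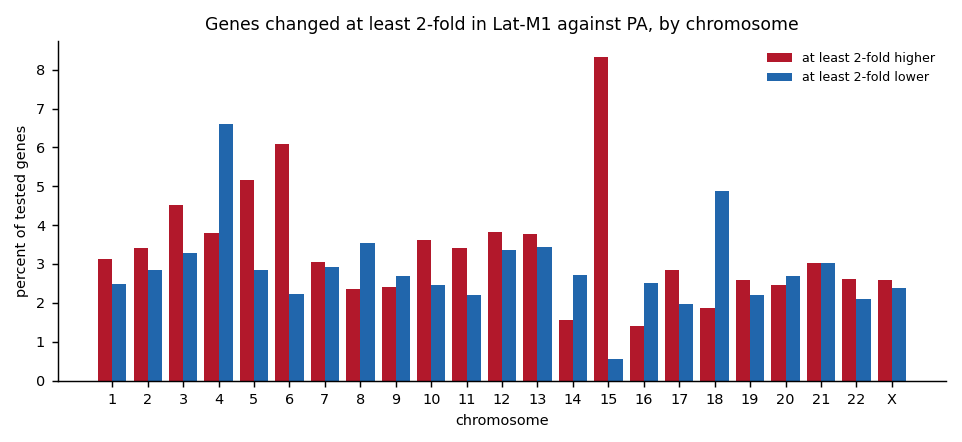
Percent of the tested genes on each of chromosomes 1 to 22 and X that were at least 2-fold higher (red bars) or lower (blue bars) in Lat-M1 than in PA on both scalings. Of these, chromosome 15 has the tallest red bar (8.33%) and the shortest blue bar (0.543%), and chromosome 4 the tallest blue bar (6.61%).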

How the data were processed

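RNA-seq of 7 libraries of 769-P was analysed: 3 PA, 2 Lat-M1 and 2 Lat-M2, grouped by their titles. The authors deposited TPM per gene, 1 table per library. Per the submitters' processing notes, reads were aligned with TopHat2 2.2.4 to hg19; the quantifier and annotation are not given in the sources used here. Per the labels, total RNA was used with either of 2 kits. From the deposited TPM, log2(TPM + 1) was taken with a pseudocount of 1, and genes averaging 1 TPM or more across the 7 libraries were fitted in limma 3.58.1 (R 4.3.3; 3 groups, shared spread, mean trend, robust), adjusted by Benjamini-Hochberg over all tested genes. The fit was repeated after median-ratio scaling, and a call needed both at an adjusted p of 0.05. The script was tested on simulated data.

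The comparison and the gene lists were chosen with earlier results of these data known. Named genes are the largest rises and falls among all genes, the largest changes in TPM, up to 3 rises and 2 falls per list, the highest genes near 0 in 1 group, and a few line markers; 1 gene among the 15 largest falls, and a few others that the rule names, are not reported here. CNN2, SMTN, TPM4 and ACTN1 are named outside that rule, for their promoter motifs, and NOTCH3, PDGFRA, FAP, DCN, LUM and the other cell markers as whole lists. The labels do not say that replicate numbers pair the libraries, and the main fit did not pair them. Alternatives were other scalings, filters, pseudocounts, tests, a replicate block and leaving out each PA or Lat-M1 library. No gene annotation or genome of hg19 was used, so gene positions on hg19 are not given.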

Additional observations from a re-analysis of the deposited data

Results flagged for a closer look

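Of the genes chosen by rule and reported here, 34 changed in opposite directions in the Lat-M1 and Lat-M2 pairs against PA. A direct difference between the pairs follows from such opposite calls, so it gives a size and no separate support. Most of these genes were picked by their change in Lat-M1. The same count over all tested genes was not made, so 34 is not a rate. Lat-M2 libraries were not left out 1 at a time. The number beside each gene is the direct contrast, Lat-M1 minus Lat-M2, on the log2(TPM + 1) scale of the deposited values. Both contrasts against PA share the PA libraries.

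Higher than PA in Lat-M1 and lower in Lat-M2 were 18 genes. The adhesion and lectin genes among them were ITGB3 (5.59 between the pairs), CLEC4E (4.98) and MRC2 (2.89). CLEC4E was 27.2 TPM in PA, 355 TPM in Lat-M1 and 10.3 TPM in Lat-M2 (group means). Growth and guidance signals were INHBA (3.49), HBEGF (2.46), NTN1 (2.48), NTNG1 (1.58) and the receptor GPR176 (2.11). INHBA averaged 31.5 TPM in PA, 99.1 TPM in Lat-M1 and 7.93 TPM in Lat-M2. The cell cycle inhibitors CDKN1A (1.57) and BTG2 (1.18) had the same pattern, with CDKN1A at 187, 332 and 111 TPM in that order. The remaining ones were TRPC4 (2.18), KIF13A (1.87), TRIM16L (1.84), RPL39L (1.75), TUBB2A (1.37), SERPINB7 (1.35), ID3 (1.08) and ECI2 (1.05). Some falls of Lat-M2 against PA were small, among them TUBB2A (-0.27), ECI2 (-0.29) and KIF13A (-0.31).

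Lower than PA in Lat-M1 and higher in Lat-M2 were 16 genes, and epithelial transporters and channels were among them: AQP1 (-6.06), SLC7A9 (-3.97), KCNJ15 (-3.49) and KCNJ13 (-2.43). AQP1 averaged 56.5 TPM in PA, 3.02 TPM in Lat-M1 and 268 TPM in Lat-M2. The others were SYT13 (-5.24), LGALS2 (-4.84), ERBB3 (-3.00), DNAJC22 (-2.38), ALDH1A1 (-1.84), EPHA7 (-1.77), RHOBTB1 (-1.68), ARHGAP42 (-1.66), EHD2 (-1.36), KLF4 (-1.35), NCR3LG1 (-1.19) and KRT8 (-1.06). The Lat-M1 calls against PA of EHD2, KRT8 and SERPINB7 were lost when 1 library was left out.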

How the results depend on the processing

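Of 513 tested genes named by rule 509 were called, and 458 of these kept the call under every alternative read gene by gene, which leaves out the test against a 1.5-fold change, among them all 29 of the largest rises and falls. Losses were most frequent without Lat-M1 replicate 1 (45 genes) or replicate 2 (34). The count of lower genes, 1941 in the report, was 3840 on scaled values alone, 4098 with TPM rescaled to protein-coding genes and 4047 with 4 structural RNAs left out, where no second scaling was required. Testing against a 1.5-fold change gave 631 higher and 429 lower genes. With the filter raised to a mean of 5 TPM, and so fewer genes tested, 316 were at least 2-fold higher and 277 at least 2-fold lower. Leaving out 1 library gave 1284 to 1719 lower genes (1284 without Lat-M1 replicate 1) and 2821 to 3914 higher ones, 541 to 613 of them at least 2-fold, with 453 to 491 at least 2-fold lower. VIM, not called in the report (0.10), was -0.12 when rescaled to protein-coding genes, with adjusted p = 0.0125; the cause was not tested. Deviations of same-numbered libraries from their group means correlated at -0.082 to 0.0312, so numbers were not taken as pairs. With a replicate block 3154 genes were higher and 1371 lower. TPM carry no depth, so the precision of low values cannot be stated.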
